A study of Homo sapiens with 4 samples.

Results

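Ribosome biogenesis and nucleolar genes were followed in Hs746T cells, an established human gastric carcinoma line that carries a MET amplification together with a MET exon-skipping mutation. The 42 genes were listed by symbol, with earlier results of these data known, and a gene value was obtained for 41 of them among 18755 named genes on the arrays. MET is a receptor tyrosine kinase, and the study asked how its suppression changes gene expression. Total RNA was hybridised to 4 single-colour Agilent arrays, with 1 array for each of DMSO, the MET kinase inhibitor PHA665752, sc siRNA (scrambled) and MET siRNA. All cells were grown in DMEM with heat-inactivated fetal bovine serum. DMSO is the solvent control of the inhibitor, sc siRNA is the control of the knockdown, and both siRNA samples were transfected while the inhibitor and DMSO samples were not. There was 1 culture sample per condition, so no value has a replicate error and no difference could be tested. The dose and duration of PHA665752 for these arrays were not given in the sources used here. The paper reports that the inhibitor lowered phosphorylated MET more effectively than the knockdown did.

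Ribosome production begins in the nucleolus, where RNA polymerase I transcribes the long precursor of the ribosomal RNAs. Small nucleolar ribonucleoproteins (snoRNPs) modify the precursor, a large assembly called the small subunit processome folds and cuts one portion of it, and a separate series of factors matures the large subunit. The ribosomal proteins themselves are made in the cytoplasm and join along the way. Production of these factors is high in growing tumour cells, and many of their promoters carry an E-box, the sequence recognised by MYC and related transcription factors.

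The promoters are described first, because a shared sequence is what the members could have in common outside the arrays. They were examined after the ratios had been computed. In the RefSeq table of the human assembly GRCh38.p14, which gives 250 bases before and 50 bases after each gene's start, 35 of the 42 members had a promoter. The E-box CACGTG, which reads the same on both strands, occurred in 11 of these 35 (31.4%). It occurred in 9.55% of the 11429 promoters of genes with a PHA665752 ratio and in 7.43% of all 27305 promoters. Some related lists held it as often, with 38.5% of other small subunit and 31.1% of other large subunit biogenesis genes. So did 3 of 7 polymerase III subunits. Others held it less often, with 13.3% of other polymerase I and snoRNP genes. The shares were 8.7% for mitochondrial and 4.76% for cytosolic ribosomal protein genes. It was in 1 of 12 host genes of small nucleolar RNAs and 0 of 8 polymerase II subunits. The E-boxes of the members were placed close to the start. In 9 members the motif began within the 50 bases after the start, and in RRP9 and UTP20 it began a few bases before it. The windows below show the motif in capitals within its flanking bases, read 5′ to 3′ along the gene's strand. The core is the same in each because the search required it, while the flanks differ.
BYSL, chr6:41921515-41921544, plus strand: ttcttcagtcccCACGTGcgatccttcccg
FBL, chr19:39846356-39846385, minus strand: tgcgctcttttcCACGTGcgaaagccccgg
MRTO4, chr1:19251807-19251836, plus strand: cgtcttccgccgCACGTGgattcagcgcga
NOC3L, chr10:94362903-94362932, minus strand: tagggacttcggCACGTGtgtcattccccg
NOP14, chr4:2963374-2963403, minus strand: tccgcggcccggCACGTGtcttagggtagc
NOP2, chr12:6568242-6568268, minus strand: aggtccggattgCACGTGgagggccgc
PES1, chr22:30591880-30591909, minus strand: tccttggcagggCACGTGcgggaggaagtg
PNO1, chr2:68157885-68157914, plus strand: ggtgcagctgcgCACGTGtttcagccggca
RRP9, chr3:51941892-51941921, minus strand: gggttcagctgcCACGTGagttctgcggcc
UTP20, chr12:101280083-101280112, plus strand: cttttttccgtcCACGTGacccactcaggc
WDR43, chr2:28894658-28894687, plus strand: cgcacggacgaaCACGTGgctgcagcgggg

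**Figure D1:**
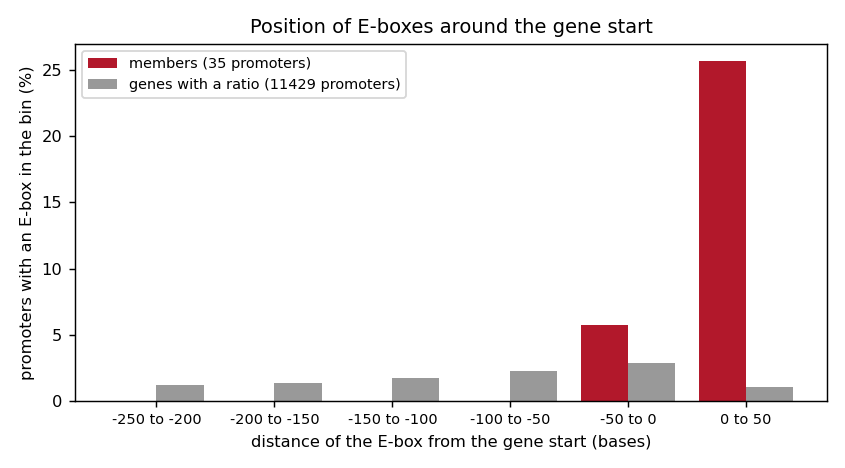
Share of promoters (%, vertical axis) with an E-box beginning in each 50-base bin of distance from the gene start (bases, horizontal axis), for 35 members (red) and 11429 genes with a ratio (grey). In the 50 bases after the start the members reach 25.7% and the other bars stay low, with 1.07% for genes with a ratio.

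The position of the motif was looked at after values had been seen, and it is a description. An E-box began in the 50 bases after the start in 25.7% of member promoters and in 1.07% of promoters of genes with a ratio. In the same window the first E-box of the promoter began in 20.5% of 39 promoters of other small subunit biogenesis genes and in 6.67% of 45 promoters of other large subunit biogenesis genes. None of the 63 promoters of cytosolic ribosomal protein genes and none of the 69 of mitochondrial ribosomal protein genes had its first E-box there. The same held for the 15 promoters of other polymerase I and snoRNP genes. The ETS-type motif CCGGAAG was present in 31.4% of member promoters against 17.2% for genes with a ratio, and more often in related lists, with 48.7% and 48.9% of the other small and large subunit genes and 33.3% of cytosolic ribosomal protein genes. The motif TCTCGCG was present in 14.3% of member promoters against 5.71% for genes with a ratio and 23.8% for cytosolic ribosomal protein genes. Both were searched on both strands. Neither contains the E-box or the other.

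MET was examined as a check of the siRNA label. Its probe gave signals of 221451 under DMSO, 100492 under the inhibitor, 190010 under sc siRNA and 77853 after MET knockdown. The log2 ratio was -1.33 for MET siRNA over sc siRNA and -0.93 for PHA665752 over DMSO, so MET mRNA was lower on both treated arrays. Signals quoted throughout are processed intensities before scaling. Log2 ratios were taken after each array was scaled to its 75th percentile, which lay between signals of 830.8 and 990.1. Between 61.1% and 68.2% of probes were well above background, lowest with MET siRNA, where 5.58% of spots carried an outlier mark and were left out against 1.69% to 2.21% on the other arrays. The epithelial markers EPCAM, KRT8, KRT18, KRT19, KRT7 and CLDN4 were well above background on all 4 arrays, while CDH1 was dim, at 10.44 to 33, and passed on 3. The gastric markers TFF1 and TFF2 and the mesenchymal markers FN1, CDH2, ZEB1 and SPARC passed on all 4, and so did PTPRC and CD14 of blood cells, whereas GKN1 and CD3E passed on none. FN1 went from 1061 under DMSO to 3564 under the inhibitor, and the part of these markers in the results was not tested.

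With PHA665752, 40 of the 41 members had a lower scaled signal than with DMSO, and 14 were lower by more than 2-fold. Over all 14440 genes with a ratio in this comparison, 44.7% lay below 0 and 7.97% were lower past 2-fold, while 13.0% were higher past 2-fold. No member was higher past 2-fold. The median log2 ratio of the members was -0.86, with the middle 50% of members between -1.10 and -0.64, beside a median of 0.07 over all genes. LYAR and RRS1 had the lowest ratios, and UBTF was the only member above 0, joined by NPM1 and NOB1 when the arrays were scaled to reference genes. Since the arrays were loaded with labelled RNA of bulk cultures, fewer cells of one kind and less RNA per cell cannot be told apart, and the ratios are relative to the other transcripts.

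With MET siRNA, 39 of the 41 members were lower than with sc siRNA, against 51.2% of 14122 genes. The differences were smaller than with the inhibitor, with a median log2 ratio of -0.36 and the middle 50% between -0.48 and -0.27, beside -0.01 over all genes. No member passed 2-fold in either direction, against 0.673% of genes lower and 1.97% higher. RRS1, at -0.77, had the lowest ratio. Fibrillarin (FBL) and UBTF were the members above 0, and over the alternatives they ranged from -0.27 to 0.11 and from -0.14 to 0.24.

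Between the control arrays the members lay around 0. For sc siRNA over DMSO, 19 of 41 members lay below 0 against 51.4% of 14310 genes, and the member median was 0.03 beside -0.01 over all genes. No member passed 2-fold, against 1.15% of genes lower and 2.89% higher. The range of the members, from -0.59 for POLR1E to 0.57 for RRP12, gives the size of difference seen between the DMSO and sc siRNA cells. The PHA665752 ratio was larger in size than this control ratio in 39 members, against 72.9% of genes, and the MET siRNA ratio in 35, against 45.0%. PHA665752 over DMSO shares the DMSO array with the control comparison, and MET siRNA over sc siRNA shares the sc siRNA array with it.

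**Figure D2:**
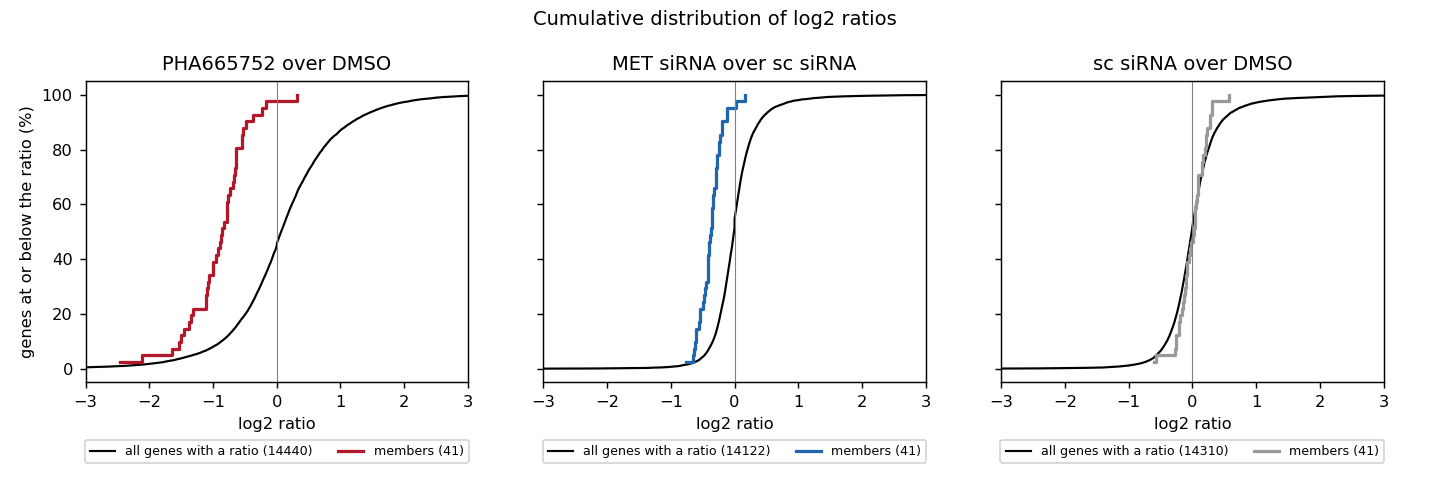
Cumulative share of genes (%, vertical axis) at or below each log2 ratio (horizontal axis) in the 3 comparisons, for all genes with a ratio (black) and the 41 members (coloured); genes beyond the plotted range are not drawn. The member curve lies to the left of the curve for all genes with PHA665752 (median -0.86 against 0.07) and with MET siRNA (-0.36 against -0.01), and runs along it between the controls (0.03 against -0.01).

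The cumulative plot shows a shift of nearly the whole set rather than of a few genes. With the inhibitor 20 members were among the lowest 10% of all genes, with MET siRNA 24 were, and between the controls 2 were. In 39 members (95.1%) the ratio was below 0 in both treatments, against 33.5% of the 13815 genes that had both ratios. These treatments share no array. In 37 members the scaled signals were lowest with PHA665752, next with MET siRNA, and higher on both control arrays, an order found in 20.5% of 13793 genes. In 38 members both treated arrays lay below both controls, against 25.5% of genes. The PHA665752 ratio was larger in size than the MET siRNA ratio in 38 members, as it was in 80.4% of all genes.

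The order of the members was only loosely shared between treatments. Across the 41 members the PHA665752 and MET siRNA ratios had a Pearson r of 0.47 and a Spearman rho of 0.27, given as a description, since the genes were measured on the same arrays and are not independent. Over all 13815 genes r was 0.51. Probes printed 10 times on each array gave a spot noise of 0.08 as the SD of a log2 ratio in each comparison, which covers the array surface and not the culture. By more than 2 of these SDs, 40 members were lower under the inhibitor, 37 under the knockdown and 8 between the control arrays, against 35.3%, 27.8% and 29.2% of all genes.

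**Figure D3:**
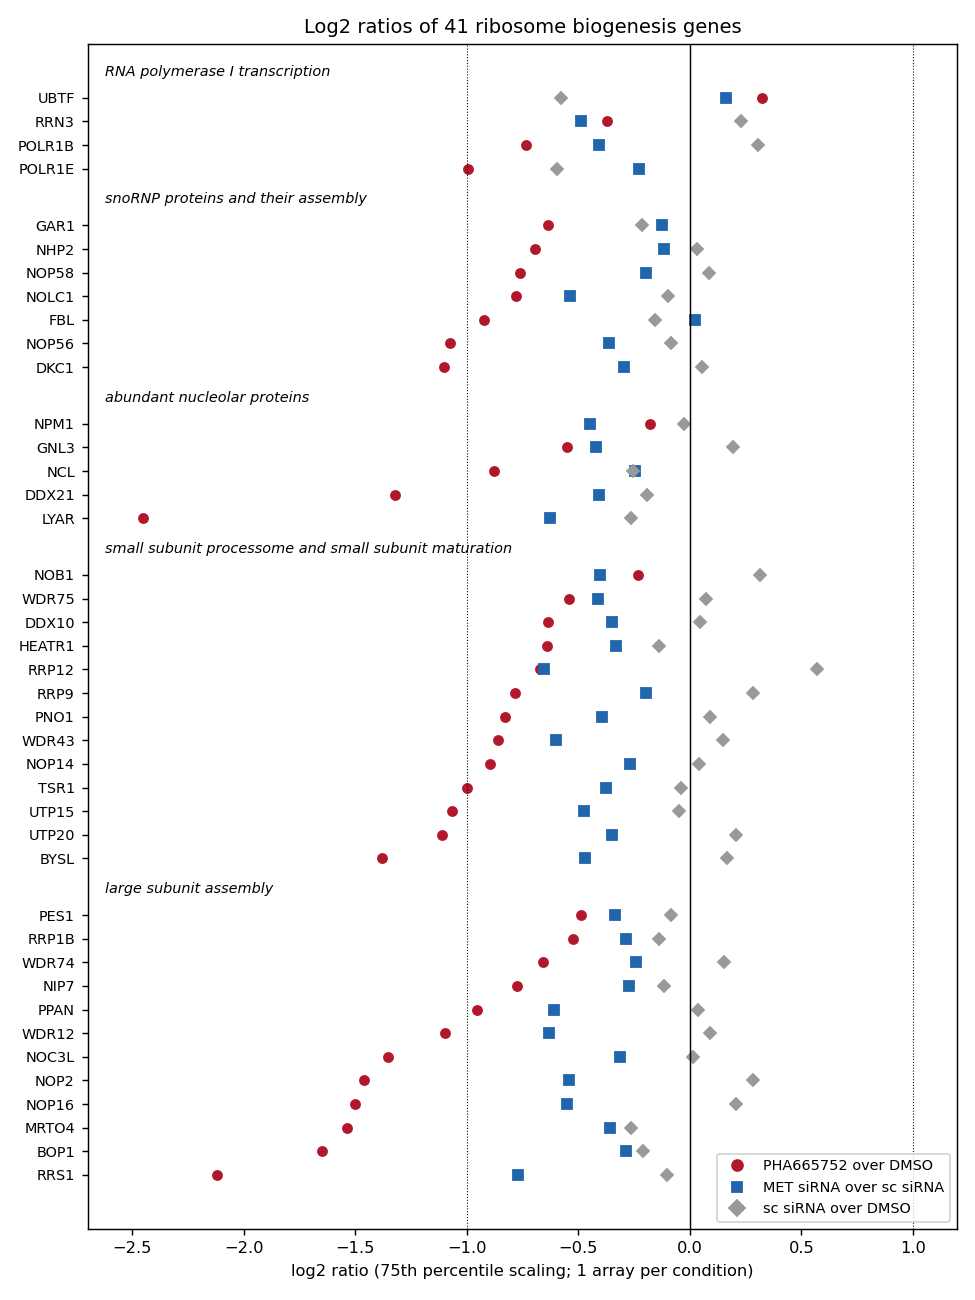
Log2 ratio (horizontal axis) of each of the 41 members (rows, grouped by role) for PHA665752 over DMSO (red circles), MET siRNA over sc siRNA (blue squares) and sc siRNA over DMSO (grey diamonds); dotted lines mark 2-fold. Nearly all red circles lie to the left of the blue squares, from -2.45 for LYAR to 0.32 for UBTF, and the grey diamonds lie around 0.

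Among genes with a full set of values, RNA polymerase I transcription was the role with the smallest displacement under PHA665752. The 4 of 5 genes with a full set of values had a median log2 ratio of -0.55 under the inhibitor and -0.32 under the knockdown, and none passed 2-fold. POLR1E, a polymerase subunit, gave signals of 917.1 under DMSO, 396.6 under PHA665752, 510.0 under sc siRNA and 450.4 after MET knockdown. Its DMSO array stood above the other 3, and the ratios were -0.995 for the inhibitor, -0.23 for the knockdown and -0.59 between the controls. UBTF, the upstream binding factor that opens the ribosomal gene promoter, gave 297.6, 321.1, 167.6 and 193.7 in the same order. It was higher on both arrays without transfection than on both siRNA arrays, and its ratios were 0.32, 0.16 and -0.58. POLR1B, the second-largest polymerase subunit, had ratios of -0.74 under the inhibitor and -0.41 under the knockdown. RRN3, the factor that brings the polymerase to the promoter, had -0.37 and -0.49. Its other probes, at low signal, gave PHA665752 ratios of -0.04 and 0.10, and RRN3 has near-identical pseudogene copies, so its value is uncertain. POLR1A, the largest subunit, gave 1425 under DMSO, 705.2 under PHA665752 and 1224 under sc siRNA. Its spot with MET siRNA was marked as an outlier, so it had no MET siRNA ratio and stayed out of the counts. Its PHA665752 ratio was -0.80. With POLR1A included, the middle of the 5 inhibitor ratios was the -0.74 of POLR1B, close to the snoRNP median of -0.78.

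The snoRNP proteins were all lower with PHA665752, in a narrow band, with a median of -0.78 over 7 genes. With MET siRNA the median was -0.20. Dyskerin (DKC1), the pseudouridine synthase of the H/ACA particles, gave 13093 under DMSO, 5257 under PHA665752, 11423 under sc siRNA and 9624 after MET knockdown. The inhibitor array was the lowest at 46.6% of DMSO after scaling, and the ratios were -1.10 and -0.29. GAR1, its partner in the same particle, gave 13022, 7219, 9406 and 8912, with the DMSO array highest, and ratios of -0.64 and -0.12. NHP2, another H/ACA core protein, had -0.69 and -0.12.

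Among the C/D particles, NOP56, a core scaffold protein, gave 21718 under DMSO, 8886 under PHA665752, 17206 under sc siRNA and 13807 after MET knockdown. Both treated arrays lay below both controls, and the ratios were -1.08 and -0.36. A second NOP56 probe, dimmer, gave -0.69 and -0.61, so the difference between treatments depended on the probe. NOP58, the matching scaffold protein, had -0.76 and -0.20. FBL, the methyltransferase of the C/D particles, gave 79731, 36265, 60091 and 63177. It was lower with the inhibitor, at -0.92, and level with MET siRNA, at 0.03. NOLC1, a chaperone of snoRNPs, had -0.78 under the inhibitor and -0.54 under the knockdown, the lowest siRNA ratio of this role.

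The abundant nucleolar proteins spread more widely than any other role with PHA665752. LYAR, a nucleolar zinc finger protein of dividing cells, gave 11288 under DMSO, 1779 under PHA665752, 7883 under sc siRNA and 5271 after MET knockdown. The inhibitor array stood far below the other 3. The LYAR ratio of -2.45, which is 5.47 times lower, was rank 129 from the lowest among 14440 genes, while with MET siRNA it was -0.63. DDX21, an RNA helicase that links polymerase I output to processing, gave 9777, 3377, 7189 and 5595, with both treated arrays below both controls. Its ratios were -1.32 and -0.41.

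Nucleolin (NCL), a histone and RNA chaperone, had ratios of -0.88 and -0.25, and its control ratio of -0.26 was as large as the siRNA one. Nucleostemin (GNL3), a nucleolar GTPase, had -0.55 and -0.42. Nucleophosmin (NPM1), the main granular-component protein, gave 61511 under DMSO, 46932 under PHA665752, 50768 under sc siRNA and 38405 after MET knockdown. Its siRNA ratio of -0.45 was larger in size than its inhibitor ratio of -0.18. A second NPM1 probe gave -0.25 under the inhibitor and -0.49 under the knockdown, and the many NPM1 pseudogenes make its level uncertain.

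All 13 factors of the small subunit were lower in both treatments, with medians of -0.83 under the inhibitor and -0.39 under the knockdown against 0.09 between the controls. BYSL (bystin), which acts late in small subunit maturation, gave 4773 under DMSO, 1583 under PHA665752, 4503 under sc siRNA and 3357 after MET knockdown, and ratios of -1.38 and -0.47. UTP20, a large processome scaffold, gave 1577, 629.4, 1528 and 1239, and ratios of -1.11 and -0.35. For both genes the sc siRNA array stood slightly above DMSO, by 0.17 and 0.21 on the log2 scale, and the inhibitor array was the lowest. UTP15, of the subcomplex that binds the precursor first, gave 376.8, 155.2, 306.1 and 227.3, and ratios of -1.07 and -0.48. TSR1, a GTPase-like factor of the maturing subunit, lay just short of 2-fold with PHA665752, at -0.998, and POLR1E was the next outside, while UTP15 was the nearest inside, at -1.07. At the other end, NOB1, the nuclease that makes the final cut of the small subunit RNA, gave 2922 under DMSO, 2143 under PHA665752, 3053 under sc siRNA and 2384 after MET knockdown. Its inhibitor ratio of -0.23 was smaller in size than its siRNA ratio of -0.40 and its control ratio of 0.32.

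The other small subunit factors lay between these ends. WDR43, WDR75 and HEATR1, which act with UTP15, had PHA665752 ratios of -0.86, -0.54 and -0.64. NOP14, a processome protein, had -0.89, and its dimmer probe gave -0.93. RRP9, of the snoRNP that guides the processome, had -0.78, and PNO1, a partner of NOB1, had -0.83. DDX10, a helicase of the processome, had -0.64, with -0.79 at its second probe. RRP12, a factor of subunit export, gave 419.3, 227.1, 523.2 and 343.9. It had the highest control ratio of all members, 0.57, beside -0.67 under the inhibitor and -0.65 under the knockdown.

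Large subunit assembly was the role with the largest displacement under PHA665752. All 12 members were lower in both treatments, 7 of them past 2-fold with the inhibitor, with a median of -1.22. With MET siRNA the median of -0.35 was close to that of the small subunit factors. RRS1, which helps to load the small RNA and protein particle of the large subunit, gave 12723 under DMSO, 2520 under PHA665752, 9956 under sc siRNA and 6036 after MET knockdown. Its ratios were -2.12 and -0.77, at rank 212 and rank 202 from the lowest among all genes, so both treatments placed it near the same rank. MRTO4, a factor that holds the place of the stalk protein, gave 3502, 1040, 2449 and 1975, and ratios of -1.54 and -0.36.

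BOP1, PES1 and WDR12 form 1 complex, yet their ratios were far apart with PHA665752. BOP1 gave 6290 under DMSO, 1730 under PHA665752, 4571 under sc siRNA and 3871 after MET knockdown, and ratios of -1.65 and -0.29. WDR12 gave 2923, 1178, 2615 and 1747, and ratios of -1.10 and -0.63. PES1 gave 474.7, 291.7, 376.1 and 307.9, and ratios of -0.49 and -0.34. In all 3 the treated arrays lay below both controls, and each was represented by a single probe. BOP1 stood lowest of the complex under the inhibitor, and WDR12 under the knockdown.

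NOP16, an early large subunit factor, gave 8533 under DMSO, 2598 under PHA665752, 8271 under sc siRNA and 5830 after MET knockdown, and ratios of -1.50 and -0.55. NOP2, a cytosine methyltransferase of the large ribosomal RNA, gave 1624, 509.1, 1659 and 1179, and ratios of -1.46 and -0.54. For both genes the sc siRNA array stood above DMSO after scaling, by 0.21 and 0.28 on the log2 scale, and the inhibitor array was lowest. NOC3L, of a transport complex of the precursor, gave 1729, 583.9, 1465 and 1217 as means of 10 spots, and ratios of -1.35 and -0.31. The remaining 4 members did not pass 2-fold. PPAN, WDR74, NIP7 and RRP1B had PHA665752 ratios of -0.96, -0.66, -0.77 and -0.52, and MET siRNA ratios of -0.61, -0.24, -0.27 and -0.29.

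**Figure D4:**
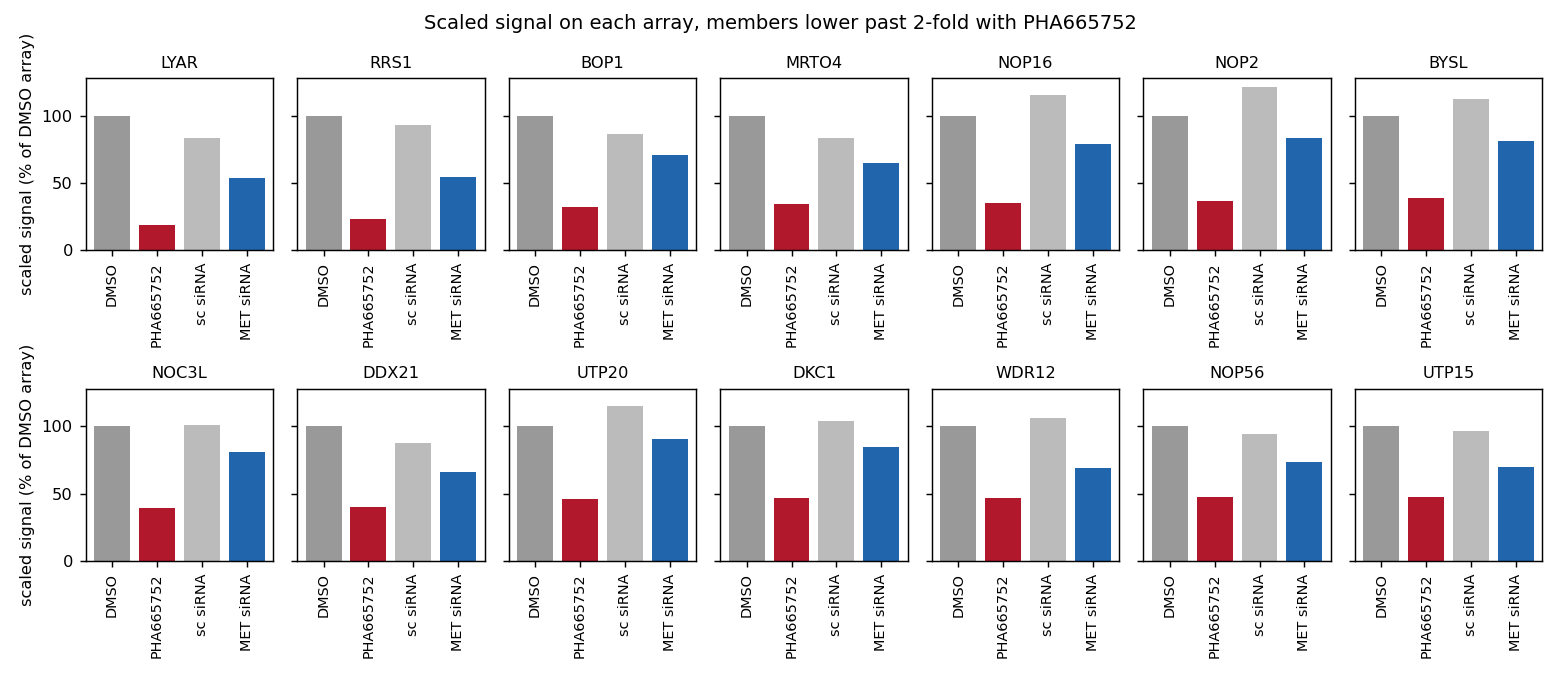
Scaled signal on each array as a percentage of the DMSO array (vertical axis, from 0) for the 14 members lower past 2-fold with PHA665752; each bar is 1 array, so there are no error bars. The red PHA665752 bar is the lowest in every panel, from 18.3% for LYAR to 47.8% for UTP15.

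The bars rank the arrays alike in all 14 genes, with the MET siRNA array above the PHA665752 array and below both controls. That the PHA665752 bar is low against DMSO was fixed by the choice of these genes. Members with and without an E-box overlapped in the size of the ratio. The 11 members with an E-box had a median of -0.92 with PHA665752 (from -1.54 to -0.49), and the 23 members with a promoter lacking it had a median of -0.74 (from -2.45 to 0.32). With MET siRNA the medians were -0.35 and -0.40. LYAR, with the lowest ratio, had no E-box in its window, and RRS1 and BOP1 had no promoter in the table.

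Other genes of the same pathway also lay mostly below 0, with medians nearer to 0 than that of the members, which were listed with results known. Over all genes, 44.7% lay below 0 and 7.97% were lower past 2-fold with PHA665752. Of 46 other large subunit factors with a ratio, 43 lay below 0 with PHA665752 and 10 were lower past 2-fold. Their medians were -0.68 under the inhibitor and -0.25 under the knockdown. CCDC86, a nucleolar protein, had the lowest ratio of these, -1.86, with signals of 45553, 10810, 39985 and 28760. NOP53, a late large subunit factor, had the highest, 0.42. Of 41 other small subunit factors, 40 lay below 0, none was lower past 2-fold, and the medians were -0.56 and -0.30. RRP36, a processome factor, was the lowest, at -0.97. UTP25, at low signal, was the exception, at 1.24, with signals of 92.33, 188.0, 114.5 and 106.6.

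Of 18 other polymerase I and snoRNP genes, 13 lay below 0 with PHA665752, and the medians were -0.46 and -0.15. In this list 2 genes were lower past 2-fold with the inhibitor, beside 7.97% of all genes. POLR1G, a polymerase I subunit, had -1.99 under the inhibitor and -0.46 under the knockdown, and its inhibitor ratio was lower than that of any polymerase I member. TCOF1, the treacle protein of ribosomal gene transcription, had -1.60 and -0.02. TAF1D, a promoter selectivity factor, was the highest of this list, at 0.26.

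The protein components of the cytosolic ribosome lay near the median of all genes. Of 79 cytosolic ribosomal protein genes, 53 had a value on every array, and none of these passed 2-fold in either direction with PHA665752. Their median ratios were 0.05 for the inhibitor, -0.05 for the knockdown and -0.01 for the control pair, against -0.86, -0.36 and 0.03 for the biogenesis members. The sign of the inhibitor median turned with the scaling, from -0.19 to 0.33 over the alternatives, but relative to all genes it stayed between -0.15 and 0.02. The lowest was RPL27A, at -0.75, and the highest RPL37, at 0.69, both at low signal and with control ratios of -0.62 and -0.55. Many ribosomal protein genes have near-identical pseudogenes, so single values are uncertain.

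Of 72 mitochondrial ribosomal protein genes, 64 lay below 0 with PHA665752, and the medians were -0.41 and -0.13. Only 3 were lower past 2-fold with the inhibitor, beside 7.97% of all genes. MRPL52 was the lowest, at -1.14, and MRPL35 the highest, at 0.24. Of the polymerases that transcribe other genes, 10 polymerase III subunits had medians of -0.50 and -0.38. Their knockdown median was slightly below the -0.36 of the members. With the inhibitor 2 of them were lower past 2-fold, beside 7.97% of all genes. POLR3K was the lowest, at -1.86, and POLR3GL the highest, at 0.71. For 11 polymerase II subunits the medians were -0.18 and 0.03, each of which changed sign under an alternative scaling, from POLR2D, at -1.24, to POLR2A, at 0.22. The 12 host genes of small nucleolar RNAs had medians of 0.23 and 0.11, which turned to -0.02 with the 50th percentile and to -0.19 with the median of probes well above background. EPB41L4A-AS1 was the highest, at 1.17 under the inhibitor and 0.49 under the knockdown, and SNHG1 the lowest, at -0.76.

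**Figure D5:**
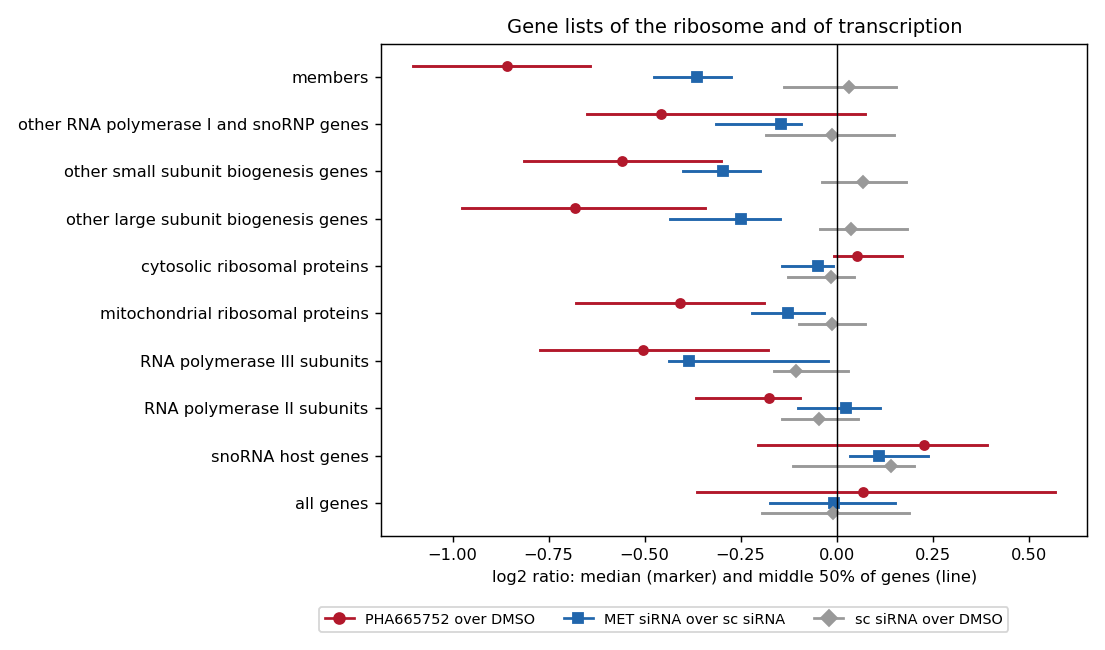
Median log2 ratio (marker) and middle 50% of genes (line) on the horizontal axis for the members, 8 related gene lists and all genes (rows) in the 3 comparisons. The members have the lowest median with PHA665752 (-0.86). The other biogenesis lists lie between -0.68 and -0.46, and the cytosolic ribosomal proteins lie at 0.05. With MET siRNA the polymerase III subunits have the lowest median, -0.38, beside -0.36 for the members.

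The reference genes give the scale for these differences. The 15 genes often used for normalization had median ratios of -0.11 under the inhibitor and -0.02 under the knockdown, but they were not level with the inhibitor, since 3 were lower past 2-fold and B2M had a ratio of 0.65. When the arrays were scaled to these genes, the member median with PHA665752 was -0.59 and 9 members were lower past 2-fold, in place of 14. When they were scaled to the 50th percentile, the median was -1.10 and the count 26. Among genes past 2-fold with PHA665752, 38% were lower in the main scaling, 21.2% with reference genes and 57.5% with the 50th percentile. The difference between the member median and the median of all genes was -0.93 in the main and the reference gene scaling and -0.94 with the 50th percentile.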

How the data were processed

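The authors deposited Feature Extraction scanner output (version 11.5.1.1). Per the file headers, its processed signal is the intensity of a spot after background subtraction, not normalized between arrays, and the series matrix repeats it within 0.05 for probes spotted once. Control spots and outlier-marked spots were dropped, log2 intensities were averaged over a probe's spots, and each array was centred on its 75th percentile. A probe well above background on just 1 of 2 compared arrays yielded a bound, and on neither yielded no ratio. RefSeq accessions, or failing these gene symbols, named 25771 of 34127 probes (GRCh38.p14 symbols). The brightest probe with a value on every array stood for its gene, and 37 members had a single probe.

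The members, the roles and the 9 other lists were chosen with earlier results of these data known. Signals on every array were given for members past 2-fold and for the highest and lowest of each role, and, chosen after values were seen, for FBL, RRP12, POLR1A, CCDC86 and UTP25. Of the other lists the highest and lowest genes were named, except the lowest reference gene, which is not reported here, and TCOF1 was named after its value was seen. With 1 array per condition there was no test, and precision is limited by the number of arrays. Ratio rules were tested on simulated data. The alternatives were 4 scalings, normexp (limma 3.58.1, offset 50), 2 filters on dim probes, the median over probes, background outlier spots kept and the series matrix. Python 3.11.15, numpy 2.4.6, pandas 2.3.3 and R 4.3.3 were used.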

Additional observations from a re-analysis of the deposited data

How the results depend on the processing

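No paired analysis was possible because each condition had 1 array. Over 10 alternatives 38 to 41 members lay below 0 with PHA665752 and 39 to 41 with MET siRNA. The member median with PHA665752, -0.86, was -1.10 with the 50th percentile, -0.95 with the median of probes well above background and -0.59 with reference genes. The member median minus the median of all genes, -0.93, was -0.84 with quantile normalization and -1.06 without a filter on dim probes. The count of members lower past 2-fold, 14, was 26 with the 50th percentile and 9 with reference genes. With MET siRNA the median, -0.36, was -0.66 with the median of probes well above background and -0.28 with reference genes, and the count of 0 became 1 under the former, which moved the median of all genes to -0.31. Of MET siRNA calls past 2-fold, 25.5% were lower in the main scaling and 59.8% there. The control median, 0.03, was -0.067 with the 50th percentile. The cause was not tested, except that a percentile or reference gene scaling shifts all genes of an array alike. Single probes per gene and single arrays limit every value.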
